A study of Mus musculus with 16 samples.

Results

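Glucose uptake, glycolysis, lactate handling and the transcriptional response to low oxygen were followed through 32 genes, chosen by symbol, in mouse muscle cells exposed to serum. The 30 genes with a mean of at least 0.5 FPKM (fragments per kilobase of transcript, scaled to the library's fragments) over 16 libraries were tested, among 11802 tested genes of the 24346 in the table. Aldoc, an aldolase gene, averaged 0.134 FPKM and Adm, which encodes the peptide adrenomedullin, averaged 0.419 FPKM, so neither was tested. Adm lay just outside the limit, with 0.0823 to 0.864 FPKM in single libraries, and the lowest tested gene, Ankrd37, averaged 1.81 FPKM.

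The cells in every group were myotubes differentiated from C2C12, a mouse myoblast line, and each culture received mouse serum for 24 hr. The sera came from mice whose Bmal1 was deleted in the liver only (labelled Bmal1hep-/-, LKO here) and that were bled at ZT16 (night) or ZT4 (day), or from wild-type (WT) mice bled at ZT16 or ZT4, where ZT is zeitgeber time. Myotubes under these sera are called LKO ZT16, LKO ZT4, WT ZT16 and WT ZT4, each with 4 libraries of poly-A RNA that the labels call biological replicates. The donors, rather than the cells, carried the deletion, so no gene in these libraries checks it. The Cre line, the age and sex of the donors, and any pooling of sera are unstated in the labels, so the p-values below measure only the spread between these libraries, which may be technical.

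Glycolysis turns glucose into pyruvate in the cytosol, and working muscle exports lactate through proton-coupled carriers. Many glycolytic genes are also targets of hypoxia-inducible factor (HIF), a dimer of an oxygen-sensitive alpha subunit such as HIF1A with ARNT. With oxygen present, prolyl hydroxylases of the EGLN family mark the alpha subunit for VHL-dependent degradation, so HIF activity is set largely by the amount of protein and can change without a change in Hif1a mRNA. Several glycolytic enzymes exist in more than 1 form, and mature muscle favours PFKM, PGAM2 and ENO3.

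None of the 30 genes passed a Benjamini-Hochberg adjusted p under 0.05 in limma in any comparison of serum groups. Most of the genes moved together from library to library inside a group. In LKO ZT16, LKO ZT4 and WT ZT16, 1 library held the highest value of 22 or 23 of the 30 genes. Pfkm, Pgam2, Eno3 and, weakly, Ldhb had negative correlations with the glucose transporter gene Slc2a1 within groups, although Eno3 and Ldhb were also highest in the high library of WT ZT16. No relation of Slc2a1 or of the hypoxia response gene Bnip3 with another tested gene passed adjustment by Pearson's r. By Spearman's rho, 1 relation among the 30 genes passed, that of Eno1 with Slc2a1. Other pairs of the 30 genes were not tested.

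**Figure D1:**
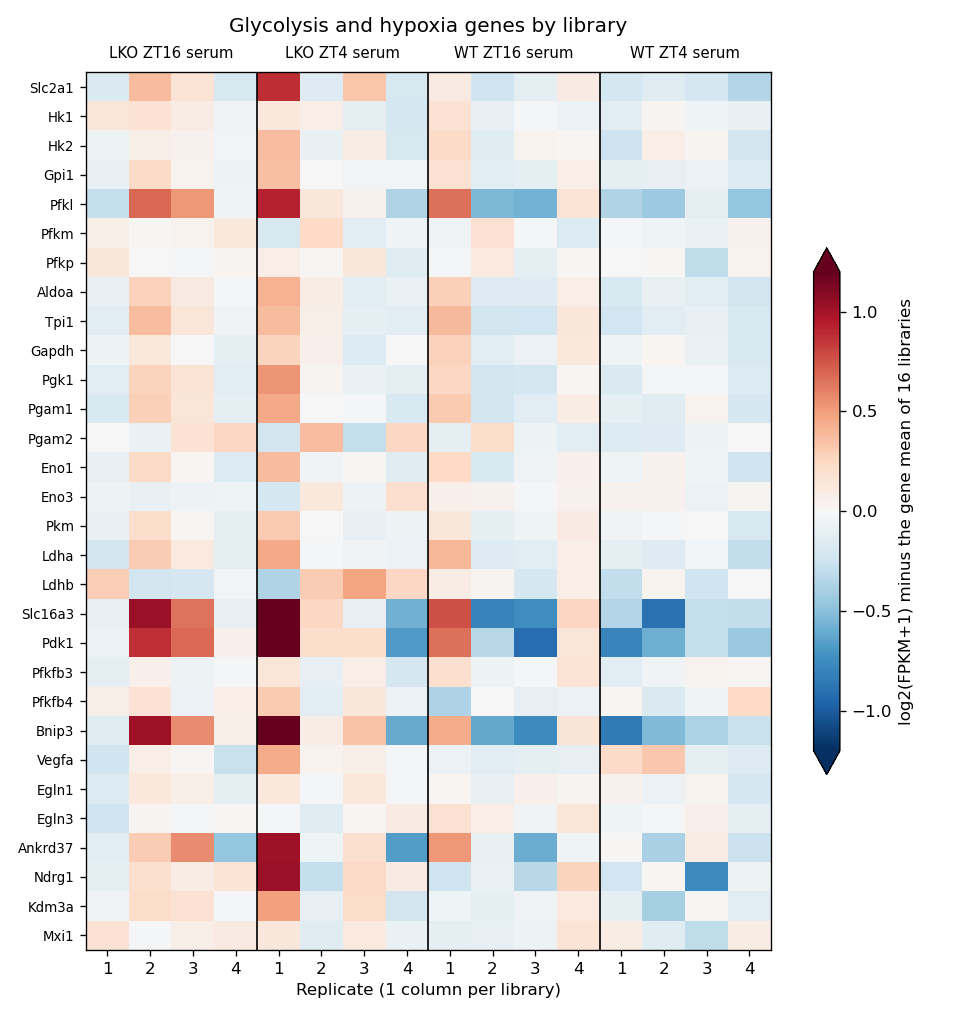
Each row is 1 of the 30 tested genes and each column 1 library, grouped by serum, with colour giving log2(FPKM+1) minus the mean of that gene over 16 libraries (values beyond 1.2 take the darkest colour). LKO ZT4 replicate 1, LKO ZT16 replicate 2 and WT ZT16 replicate 1 lie above the gene mean in 25, 26 and 22 of the 30 rows. LKO ZT16 replicate 3 and WT ZT16 replicate 4 do so in 23 and 24 rows. Their medians are smaller, at 0.08 each, against 0.38, 0.20 and 0.18 in the first 3 libraries. Pfkm, Pgam2, Eno3, Ldhb and, slightly, Egln3 lie below their mean in LKO ZT4 replicate 1.

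The sequences before the transcription start are shown for Slc2a1 and the 4 genes that varied most within groups, and for Pgam2 and Eno3, which had the most negative correlations with Slc2a1 within groups among the 30 genes. HIF binds DNA at a short core that ends in CGTG, preceded by A or G. Each line gives the 250 bases before the start in RefSeq annotation of GRCm38.p6, 5′ to 3′ on the strand of the gene, with ACGTG and GCGTG on either strand in capitals (CACGT and CACGC are the reverse-strand forms). The windows are chr7:138909507-138909756 on the minus strand for Bnip3, chr11:120948817-120949066 on the plus strand for Slc16a3 and chr2:71872974-71873223 on the plus strand for Pdk1. They are chr4:119108495-119108744 on the plus strand for Slc2a1, chr8:45999851-46000100 on the minus strand for Ankrd37, chr11:5803797-5804046 on the minus strand for Pgam2 and chr11:70656926-70657175 on the plus strand for Eno3.
Bnip3: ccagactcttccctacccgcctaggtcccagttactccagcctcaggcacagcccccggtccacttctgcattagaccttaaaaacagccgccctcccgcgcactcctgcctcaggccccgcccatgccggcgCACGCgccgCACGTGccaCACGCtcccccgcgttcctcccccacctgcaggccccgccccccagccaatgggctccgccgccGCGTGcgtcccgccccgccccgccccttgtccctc
Slc16a3: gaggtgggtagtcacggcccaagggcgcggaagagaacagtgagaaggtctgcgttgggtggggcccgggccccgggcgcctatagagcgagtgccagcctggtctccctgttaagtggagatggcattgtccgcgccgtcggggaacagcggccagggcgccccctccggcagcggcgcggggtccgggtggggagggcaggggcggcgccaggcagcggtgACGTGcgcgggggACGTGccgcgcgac
Pdk1: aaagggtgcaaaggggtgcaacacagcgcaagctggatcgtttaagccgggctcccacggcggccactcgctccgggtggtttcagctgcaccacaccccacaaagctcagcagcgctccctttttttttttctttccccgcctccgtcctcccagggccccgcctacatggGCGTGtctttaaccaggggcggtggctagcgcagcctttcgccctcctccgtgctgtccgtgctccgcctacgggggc
Slc2a1: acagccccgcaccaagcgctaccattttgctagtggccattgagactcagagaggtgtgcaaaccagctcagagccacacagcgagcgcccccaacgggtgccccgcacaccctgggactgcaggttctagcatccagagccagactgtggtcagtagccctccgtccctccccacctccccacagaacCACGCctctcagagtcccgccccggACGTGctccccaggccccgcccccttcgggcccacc
Ankrd37: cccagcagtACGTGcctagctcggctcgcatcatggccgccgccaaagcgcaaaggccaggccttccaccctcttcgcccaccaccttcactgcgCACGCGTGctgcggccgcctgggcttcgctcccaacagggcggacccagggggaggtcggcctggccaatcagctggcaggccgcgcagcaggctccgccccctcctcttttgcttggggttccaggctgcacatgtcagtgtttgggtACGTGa
Pgam2: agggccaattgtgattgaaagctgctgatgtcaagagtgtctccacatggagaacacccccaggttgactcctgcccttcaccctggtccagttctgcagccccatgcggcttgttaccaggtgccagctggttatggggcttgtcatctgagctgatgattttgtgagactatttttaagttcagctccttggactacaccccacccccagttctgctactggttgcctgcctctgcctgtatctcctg
Eno3: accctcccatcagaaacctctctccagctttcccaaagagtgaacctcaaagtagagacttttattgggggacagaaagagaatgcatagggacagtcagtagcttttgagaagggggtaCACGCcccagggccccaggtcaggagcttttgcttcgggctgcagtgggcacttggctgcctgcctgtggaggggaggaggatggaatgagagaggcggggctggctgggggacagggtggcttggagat
Bnip3 held 3 matches to GCGTG and a CACGTG, which counts as 2 overlapping matches to ACGTG. Slc16a3 held 2 matches to ACGTG and Pdk1 held 1 match to GCGTG. Of the 4 genes with negative correlations, Pgam2 held neither motif in this window, Eno3 and Ldhb each held 1 match to GCGTG, and Pfkm held a CACGTG that counts as 2 matches to ACGTG.

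Windows of this length were found for 29 of the 30 genes; Ndrg1 had no entry. ACGTG was present in 12 of the 29 windows (41.4%), in 22.4% of the windows of tested genes and in 16.6% of all windows. GCGTG was present in 14 windows (48.3%), against 47.0% of those of tested genes and 28.2% of all windows. CACGTG, the letters to which the clock factors CLOCK and BMAL1 also bind, was present in 3 windows (10.3%), those of Pfkm, Ldha and Bnip3, against 8.73% of those of tested genes. These are matches of letters and not measured binding sites.

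Uptake and the first steps of glycolysis were expressed in every library. Slc2a1, which encodes the basal glucose transporter GLUT1, had 50.5, 74.6, 63.9 and 49.6 FPKM in LKO ZT16 replicates 1 to 4 and 106, 51.2, 72.0 and 49.7 FPKM in LKO ZT4. It had 61.6, 48.2, 52.4 and 61.2 FPKM in WT ZT16 and 49.0, 51.4, 49.4 and 44.5 FPKM in WT ZT4. LKO ZT4 replicate 1 stood highest of all 16 libraries, LKO ZT16 replicate 2 came next, and the WT ZT4 libraries lay close together. Hexokinase, which traps glucose in the cell, was present as Hk1 at 28.2 FPKM and Hk2 at 21.7 FPKM on average, and Hk1 was 1.09 to 1.51 times Hk2 in every library. Gpi1, which encodes glucose-6-phosphate isomerase, averaged 149 FPKM.

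Phosphofructokinase, the committed step of glycolysis, was represented by 3 genes that did not vary alike. Pfkl, the liver form, had 22.1, 44.3, 39.2 and 26.1 FPKM in LKO ZT16 and 52.4, 29.9, 28.1 and 20.8 FPKM in LKO ZT4. It had 43.5, 18.4, 18.0 and 30.5 FPKM in WT ZT16 and 20.9, 19.8, 25.1 and 19.4 FPKM in WT ZT4. The highest and lowest library of Pfkl thus lay furthest apart in LKO ZT4 and WT ZT16, and every group overlapped with every other. Pfkm, the muscle form, averaged 62.4 ± 2.00, 58.7 ± 8.31, 59.3 ± 6.11 and 58.8 ± 2.36 FPKM in LKO ZT16, LKO ZT4, WT ZT16 and WT ZT4 (SD, n = 4 each). The ratio of Pfkm to Pfkl ran from 0.995 in LKO ZT4 replicate 1 to 3.69, so that the 2 forms were level in that library. Pfkp, the platelet form, averaged 18.2 FPKM. Values of Pfkl by library are given because its spread was seen to be large.

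Most of the abundant genes were those of lower glycolysis, where Pgam2, Slc16a3 and Ldhb were lower. Gapdh, which encodes glyceraldehyde-3-phosphate dehydrogenase, had 2636, 2992, 2740.2 and 2535 FPKM in LKO ZT16 and 3299, 2866, 2457 and 2748 FPKM in LKO ZT4. It had 3339, 2519, 2611 and 3008 FPKM in WT ZT16 and 2646, 2785, 2594 and 2405 FPKM in WT ZT4. Replicate 1 was highest in LKO ZT4 and WT ZT16, and replicate 2 in LKO ZT16 and WT ZT4, with all groups overlapping. Pkm, encoding pyruvate kinase, averaged 1254 FPKM. Eno1, the ubiquitous enolase, averaged 1018 FPKM. Pgk1, phosphoglycerate kinase, averaged 522 FPKM. Aldoa, the aldolase form of muscle, belongs to the first steps and averaged 705 FPKM. Several of these genes have processed pseudogenes, and the counting of reads that match several places is unstated, so their levels are uncertain.

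Lactate dehydrogenase mRNA was almost wholly of the A form, whose enzyme favours the making of lactate from pyruvate. Protein was not measured. Ldha had 598, 862, 759 and 641 FPKM in LKO ZT16 and 953, 692, 676 and 663 FPKM in LKO ZT4. It had 918, 627, 638 and 739 FPKM in WT ZT16 and 642, 626, 681 and 569.6 FPKM in WT ZT4. The single high library of LKO ZT4 and of WT ZT16 was replicate 1 in each, and the other libraries of these groups had at most 739 FPKM. Ldhb had 6.58, 4.30, 4.35 and 5.01 FPKM in LKO ZT16 and 3.80, 6.61, 7.54 and 6.32 FPKM in LKO ZT4. It had 5.56, 5.30, 4.34 and 5.50 FPKM in WT ZT16 and 4.02, 5.36, 4.24 and 5.16 FPKM in WT ZT4. LKO ZT4 replicate 1 was the highest library for Ldha and the lowest for Ldhb, and the ratio of Ldha to Ldhb ran from 89.7 to 251 over the 16 libraries.

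Slc16a3, which encodes the lactate exporter MCT4, varied most within groups of all 30 genes. It had 11.1, 25.4, 19.2 and 11.04 FPKM in LKO ZT16 and 30.1, 14.3, 11.1 and 7.66 FPKM in LKO ZT4. It had 21.1, 6.41, 6.71 and 14.4 FPKM in WT ZT16 and 9.12, 5.95, 9.60 and 9.51 FPKM in WT ZT4. The WT ZT4 libraries lay at 9.60 FPKM or below, and each other group held a library at 21.1 FPKM or above. These values by library are likewise shown because the spread was seen to be large.

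**Figure D2:**
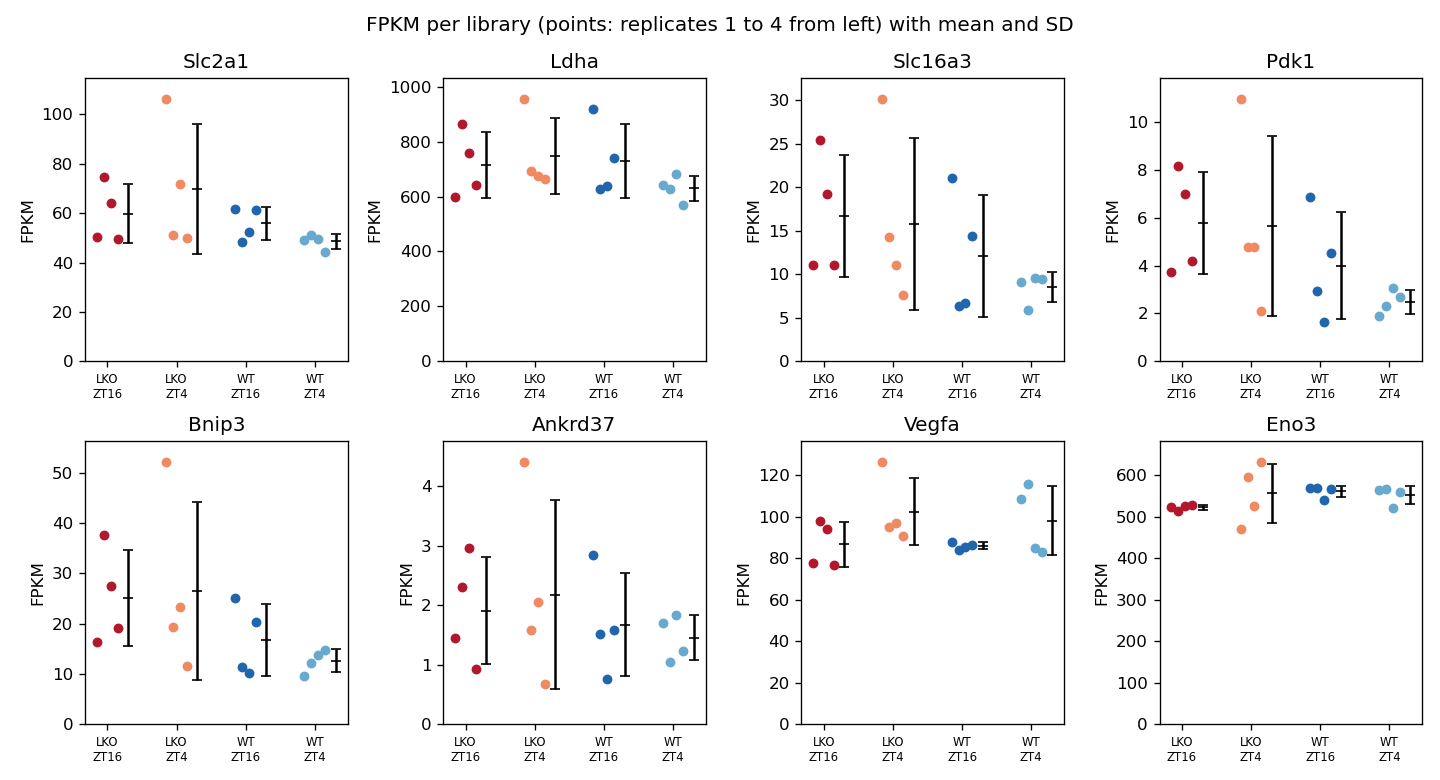
Points are FPKM of single libraries (replicates 1 to 4 from left in each serum group) for 8 genes, with the mean and SD of 4 libraries as bars. Slc2a1, Ldha, Slc16a3, Pdk1, Bnip3, Ankrd37 and Vegfa have their highest point in LKO ZT4 replicate 1, while Eno3 has its lowest point there.

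Regulators of flux were expressed at low levels. Pdk1, whose kinase holds pyruvate dehydrogenase inactive and so keeps pyruvate from the mitochondrion, had 3.75, 8.13, 6.99 and 4.21 FPKM in LKO ZT16 and 10.9, 4.77, 4.79 and 2.11 FPKM in LKO ZT4. It had 6.87, 2.95, 1.65 and 4.51 FPKM in WT ZT16 and 1.89, 2.32, 3.08 and 2.67 FPKM in WT ZT4. Its order over libraries was close to that of Slc16a3, with the same highest library in all 4 groups. Pfkfb3 and Pfkfb4, whose enzymes make and break the phosphofructokinase activator fructose-2,6-bisphosphate, averaged 3.82 and 4.04 FPKM.

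Hypoxia response genes without a glycolytic role fell into variable and even ones. Bnip3, a mitophagy receptor gene, had 16.4, 37.7, 27.5 and 19.1 FPKM in LKO ZT16 and 52.1, 19.4, 23.3 and 11.6 FPKM in LKO ZT4. It had 25.1, 11.5, 10.3 and 20.3 FPKM in WT ZT16 and 9.65, 12.2, 13.7 and 14.9 FPKM in WT ZT4. LKO ZT4 alone spanned from below the mean of WT ZT4 to the highest value of the series. Ankrd37, which encodes an ankyrin repeat protein, had 0.675 to 4.40 FPKM in LKO ZT4, and Ndrg1, a stress-responsive gene, had 16.8 to 43.3 FPKM there. Kdm3a, a histone demethylase gene, averaged 7.71 FPKM and Mxi1, which encodes an antagonist of MYC, 6.40 FPKM.

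Vegfa, which encodes the main angiogenic growth factor, had 78.0, 98.1, 94.2 and 76.8 FPKM in LKO ZT16 and 126, 95.3, 97.3 and 90.8 FPKM in LKO ZT4. It had 88.0, 84.3, 85.6 and 86.6 FPKM in WT ZT16 and 109, 116, 85.1 and 83.0 FPKM in WT ZT4. Unlike Bnip3, it was high in WT ZT4 replicates 1 and 2 and nearly even over WT ZT16.

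The HIF prolyl hydroxylases, themselves known HIF targets, were among the most even of the 30 genes, though near the middle among tested genes of like level. Egln1 had 27.2, 33.4, 32.2 and 28.3 FPKM in LKO ZT16, 33.5, 30.3, 33.6 and 30.2 FPKM in LKO ZT4, 31.1, 28.8, 32.0 and 31.4 FPKM in WT ZT16, and 31.7, 29.2, 31.6 and 26.5 FPKM in WT ZT4. Egln3 had 44.4, 53.7, 51.9 and 53.1 FPKM in LKO ZT16, 52.0, 47.1, 53.4 and 56.3 FPKM in LKO ZT4, 59.5, 55.3, 51.0 and 58.0 FPKM in WT ZT16, and 50.4, 51.6, 54.8 and 48.4 FPKM in WT ZT4. Neither gene had a library as far from its group as LKO ZT4 replicate 1 was for Bnip3, and Egln3 was 1.55 to 1.92 times Egln1 in each library.

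The mRNA of the general form of an enzyme was more abundant than that of the muscle form at the mutase and enolase steps. Pgam1, the general phosphoglycerate mutase, was 7.79 to 17.1 times the muscle form Pgam2 over the 16 libraries. Eno1 was 1.45 to 2.80 times Eno3, the muscle enolase. Eno3 had 524, 515, 525 and 529 FPKM in LKO ZT16, 471, 596, 526 and 631 FPKM in LKO ZT4, 569, 568, 541 and 566 FPKM in WT ZT16, and 565, 565, 521 and 558 FPKM in WT ZT4. The LKO ZT16 libraries lay below every WT ZT16 library, and those of LKO ZT4 spread on both sides of all other groups. Aldoa was at least 2119 times Aldoc in every library.

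**Figure D3:**
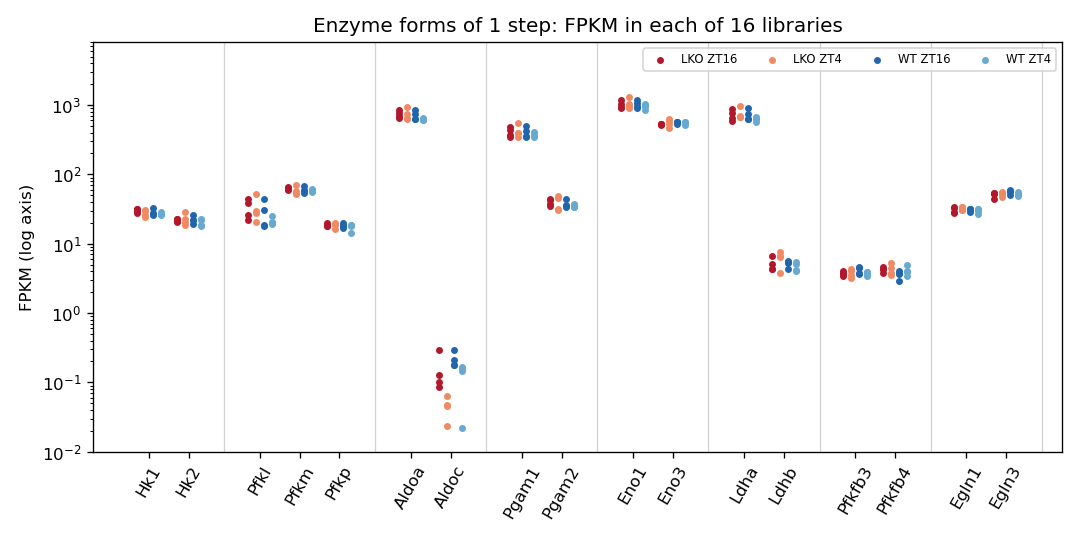
Points are FPKM of single libraries on a log axis for genes that encode forms of the same enzyme step, coloured by serum group. Ldha lies 89.7 to 251 times above Ldhb in each library, and Pfkl spreads more than Pfkm, Pfkp, Hk1 or Hk2.

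The parts of the HIF pathway itself were expressed as mRNA. Hif1a averaged 89.6 ± 17.1 FPKM in LKO ZT16, 76.8 ± 8.38 in LKO ZT4, 77.1 ± 6.73 in WT ZT16 and 82.0 ± 12.6 in WT ZT4 (SD, n = 4 each). Its partner Arnt averaged 15.5 FPKM over the 16 libraries, Vhl 13.1 FPKM, the third prolyl hydroxylase gene Egln2 24.9 FPKM and Hif1an, an asparaginyl hydroxylase gene, 17.4 FPKM. Cited2, whose protein competes with HIF for its coactivator, averaged 94.6 FPKM. Epas1 and Hif3a, which encode other alpha subunits, averaged 0.0082 and 0.0014 FPKM and were not tested.

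The first comparison asked whether serum of LKO mice drawn by day acted otherwise than serum of WT mice drawn by day. In LKO ZT4 against WT ZT4, 28 of the 30 genes had a positive difference in log2(FPKM+1), with a median of 0.15, where 47.3% of all tested genes were positive with a median of -0.01. With libraries brought to equal summed FPKM, 23 of 30 were positive, with a median of 0.08 where that of all tested genes was -0.07. None of the 30 passed the adjusted threshold, which 0.00847% of all tested genes did. An unadjusted limma p under 0.05 was reached by 4 of the 30, and by 10.3% of all tested genes.

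These 4 were Slc2a1, Ndrg1, Bnip3 and Pdk1. Slc2a1 was higher by 0.45 ± 0.19 log2 (SE) in LKO ZT4 than in WT ZT4 (adjusted p = 0.432). LKO ZT4 replicates 2 and 4 lay within the range of WT ZT4, so the groups overlapped. Bnip3 was higher by 0.83 ± 0.36 log2, with a 95% interval of 0.07 to 1.59 (adjusted p = 0.448). Pdk1 was higher by 0.78 ± 0.35 log2 (adjusted p = 0.466) and Ndrg1 by 0.52 ± 0.22 log2 (adjusted p = 0.441). For Bnip3 and Pdk1, LKO ZT4 replicates 1 to 3 lay above every WT ZT4 library and replicate 4 lay among them. The next genes by p were Gpi1 (0.18 ± 0.09 log2, adjusted p = 0.515) and Kdm3a (0.26 ± 0.13 log2, adjusted p = 0.519). Gpi1 was the 1 gene of the 30 whose groups did not overlap, with 190.2, 149, 144 and 145 FPKM in LKO ZT4 and 137, 138, 141 and 132 FPKM in WT ZT4. Among all tested genes, 3.95% did not overlap.

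Leaving out LKO ZT4 replicate 1 lowered these differences. The median of the 30 genes was then 0.07, 25 of 30 were positive, and 1 (Ldhb) had an unadjusted limma p under 0.05. Ldhb was not among the 4 genes above, and its difference rose from 0.29 ± 0.15 to 0.46 ± 0.13 log2. Slc2a1 was higher by 0.22 ± 0.14 log2, Bnip3 by 0.45 ± 0.31, Pdk1 by 0.44 ± 0.32 and Ndrg1 by 0.27 ± 0.18, with adjusted p between 0.553 and 0.610. Leaving out LKO ZT4 replicate 4 raised them. The median was then 0.22, 27 of 30 were positive, 9 had an unadjusted p under 0.05 and none passed, with Bnip3 higher by 1.14 log2 (adjusted p = 0.208) and Pdk1 by 1.09 log2. LKO ZT4 replicate 1 also lay farthest out on the leading principal component of all tested genes (17.2% of the variance), at 22.2. LKO ZT4 replicate 4 lay at the opposite end, at -13.7, and LKO ZT16 replicate 2 had 11.4.

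Night serum of LKO mice was compared with night serum of WT mice. In LKO ZT16 against WT ZT16, 20 of the 30 genes were positive, with a median of 0.06, where all tested genes had a median of 0.01. Brought to equal summed FPKM, 28 of 30 were positive, with a median of 0.17 where that of all tested genes was 0.10. None of the 30 passed, nor did any reach an unadjusted p under 0.05, where 0.0508% of all tested genes passed and 12.8% had such a p. At equal summed FPKM 3 of the 30 had such a limma p, with library weights 2, and without WT ZT16 replicate 1 also 2. The shares of all tested genes under these settings are not given. The 6 genes with the smallest p were Egln3, Pfkfb4, Bnip3, Pdk1, Eno3 and Slc16a3.

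Bnip3 was higher by 0.57 ± 0.36 log2 in LKO ZT16 than in WT ZT16 (adjusted p = 0.522), Pdk1 by 0.50 ± 0.35 (adjusted p = 0.572) and Slc16a3 by 0.50 ± 0.38 (adjusted p = 0.607). In all 3 genes the high library of WT ZT16, replicate 1, lay among the LKO ZT16 values, and so did WT ZT16 replicate 4. Egln3 was lower by a difference of -0.14 ± 0.07 log2 (adjusted p = 0.433), and Pfkfb4 was higher by 0.20 ± 0.11 (adjusted p = 0.481). Eno3 had a difference of -0.10 ± 0.07 log2 (adjusted p = 0.576) and was the 1 gene without overlap between groups, where 11.9% of all tested genes had none. Without LKO ZT16 replicate 2 the median of the 30 genes was -0.0033 (15 of 30 positive), and Bnip3 was higher by 0.36 ± 0.38. The median was 0.0062 without WT ZT16 replicate 2 and -0.0012 without WT ZT16 replicate 3. Without WT ZT16 replicate 1 the median was 0.09 (25 positive), and Bnip3 was higher by 0.79 ± 0.38 (adjusted p = 0.531).

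Within sera of LKO mice, night was compared with day. In LKO ZT16 against LKO ZT4, 11 of the 30 genes were positive, with a median of -0.03 where all tested genes had 0.01. With libraries brought to equal summed FPKM, 26 of 30 were positive, with a median of 0.07 where that of all tested genes was 0.10. The sign of the median also turned with library weights (17 of 30 positive, median 0.01) and with the length trend removed (16 of 30, median 0.0098). None passed and none had an unadjusted p under 0.05, against 0.0169% and 11.9% of all tested genes. Vegfa had the smallest p, with a difference of -0.23 ± 0.12 log2 (adjusted p = 0.450). Hk1 differed by 0.12 ± 0.08 (adjusted p = 0.585), Ldhb by -0.21 ± 0.15 (adjusted p = 0.621) and Pfkm by 0.10 ± 0.08 (adjusted p = 0.681). Eno3 and Egln1 each differed by -0.08 ± 0.07 (adjusted p = 0.697 and 0.721). No gene of the 30 was without overlap, against 5% of all tested genes. Without LKO ZT4 replicate 1, 24 of 30 were positive with a median of 0.07, the difference of Vegfa was -0.13 ± 0.11, and that of Ldhb was -0.38 ± 0.13 (adjusted p = 0.172). The median was also above 0 without LKO ZT16 replicate 1 (0.01) or replicate 4 (0.0037).

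Within sera of WT mice, 28 of the 30 genes were positive in WT ZT16 against WT ZT4, with a median of 0.12 where all tested genes had 0.00067. With libraries brought to equal summed FPKM, 19 of 30 were positive, with a median of 0.03 where that of all tested genes was -0.07. None passed, as for all tested genes (0%), and none had an unadjusted p under 0.05, which 3.97% of tested genes had. In the values as deposited, all 9 tested genes of uptake and the first steps and all 10 of lower glycolysis and lactate were positive, with medians of 0.13 and 0.11. Egln3 differed by 0.12 ± 0.07 log2, Vegfa by -0.17 ± 0.12, Ldha by 0.20 ± 0.14, Aldoa by 0.17 ± 0.12, Gapdh by 0.13 ± 0.10 and Tpi1, the triosephosphate isomerase gene, by 0.18 ± 0.14 (adjusted p = 0.999 for each). No gene was without overlap, against 4.34% of tested genes. Without WT ZT16 replicate 1, the median was 0.06 with 25 positive, and Ldha differed by 0.08 ± 0.13 and Tpi1 by 0.06 ± 0.13.

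The interaction, the night-minus-day difference under LKO serum minus that under WT serum, was negative for 26 of the 30 genes, with a median of -0.15 where all tested genes had 0.01. Brought to equal summed FPKM, 8 of 30 were negative, with a median of 0.03 where that of all tested genes was 0.17. None of the 30 passed and none had an unadjusted p under 0.05, against 0.0932% and 10.3% of all tested genes. Egln3 had the smallest p, with -0.16 ± 0.10 log2 (adjusted p = 0.604), followed by Ldhb with -0.32 ± 0.22 (adjusted p = 0.643) and Slc2a1 with -0.37 ± 0.26 (adjusted p = 0.666). Ldha had -0.26 ± 0.20 (adjusted p = 0.690), Gapdh -0.19 ± 0.14 (adjusted p = 0.694) and Egln1 -0.13 ± 0.10 (adjusted p = 0.719). With LKO ZT4 replicate 1 left out, 19 of 30 were negative and the median was -0.03. The comparisons share groups: each group enters 2 of the pairwise comparisons and the interaction.

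**Figure D4:**
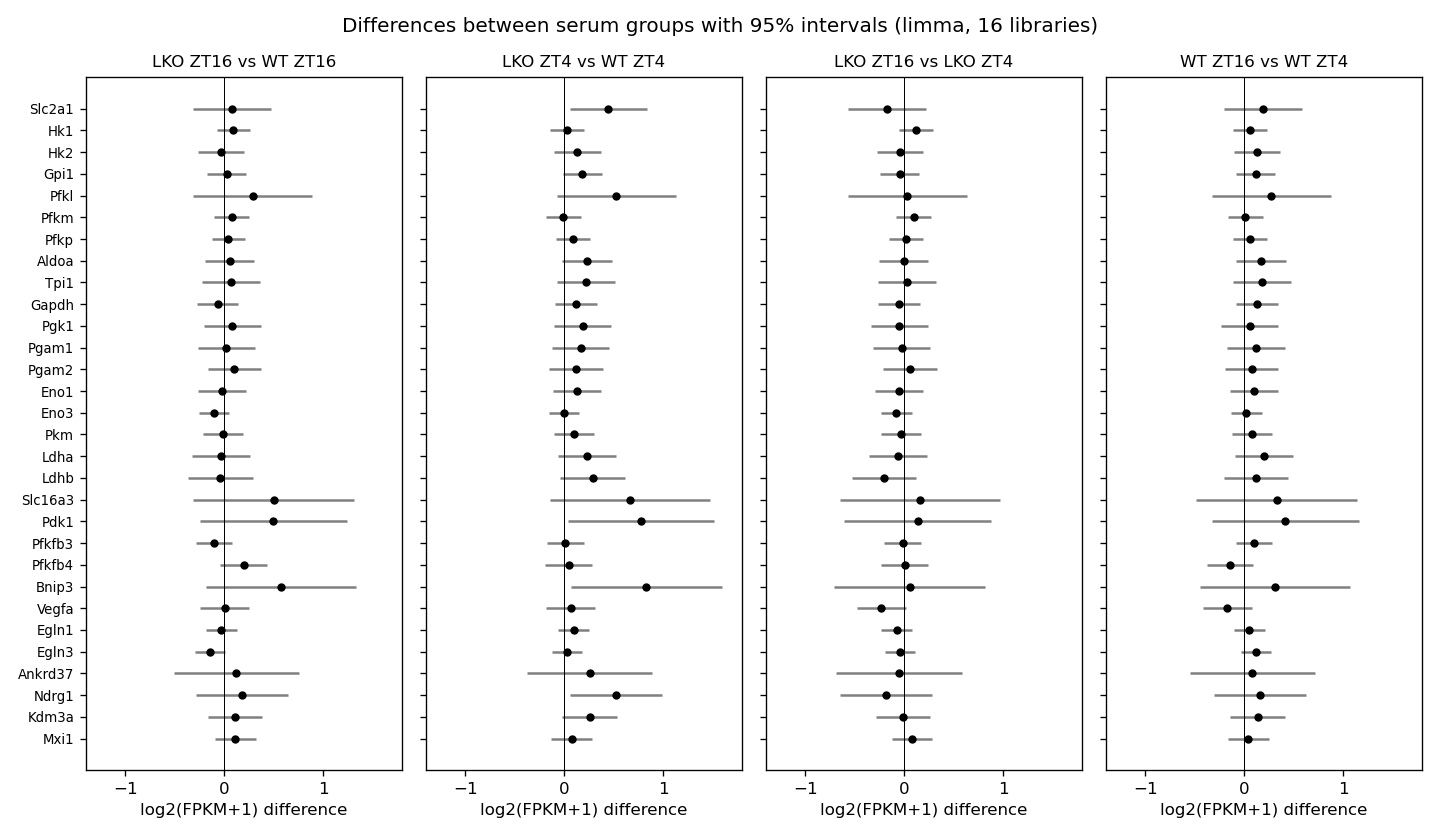
Points are differences in log2(FPKM+1) for the 30 genes in 4 comparisons of serum groups, with 95% intervals from limma as lines and 0 as a vertical line. In LKO ZT4 against WT ZT4 the intervals of Slc2a1, Pdk1, Bnip3 and Ndrg1 lie above 0, none after adjustment, and Slc16a3, Pdk1, Bnip3, Pfkl and Ankrd37 have the widest intervals.

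The spread within groups was then described gene by gene, after the values had been seen. The pooled within-group SD of log2(FPKM+1) had a median of 0.18 over the 30 genes and 0.13 over all tested genes. Slc16a3 had 0.64, Bnip3 0.60, Pdk1 0.58, Ankrd37 0.49 and Pfkl 0.47, and Pfkl, the least of these, lay above 98.7% of tested genes. Ndrg1, at 0.36, lay above 97.4% of tested genes, and Slc2a1, at 0.30, above 95.5%. At the other end, Eno3 and Egln3 had 0.10 each and lay above 28.1 and 29.7% of tested genes. Among the 500 tested genes nearest in mean level, Eno3, Egln3 and Egln1 stood at percentiles 38.1, 48.3 and 50.3, and Pfkfb3 was lowest at 24.8. By the same measure Slc16a3, Bnip3, Pdk1, Ankrd37, Pfkl, Ndrg1 and Slc2a1 stood at 96.6 to 99.8.

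The high library of each group was mostly shared. LKO ZT16 replicate 2 held the highest value of its group for 23 of the 30 genes (76.7%), where it did so for 25.9% of all tested genes. LKO ZT4 replicate 1 also did so for 23 genes (76.7%), against 32.3% of all tested genes. WT ZT16 replicate 1 did so for 22 genes (73.3%), against 28.7% of all tested genes. In WT ZT4 no library held most: replicate 3 was highest for 13 genes (23.4% of all tested genes), replicate 2 for 10 (26.1%), replicate 4 for 6 (26.4%) and replicate 1 for 1 (24.1%). The other libraries of LKO ZT16 were highest for 3, 1 and 3 genes (replicates 1, 3 and 4), against 27, 19.1 and 28% of all tested genes. Those of LKO ZT4 were highest for 2, 3 and 2 genes (replicates 2 to 4), against 17, 24.6 and 26.1%, and those of WT ZT16 for 4, 1 and 3 genes (replicates 2 to 4), against 25.2, 24.2 and 21.9%. The genes highest elsewhere included Pfkm and Pgam2, which were highest in LKO ZT16 replicate 4, LKO ZT4 replicate 2 and WT ZT16 replicate 2.

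**Figure D5:**
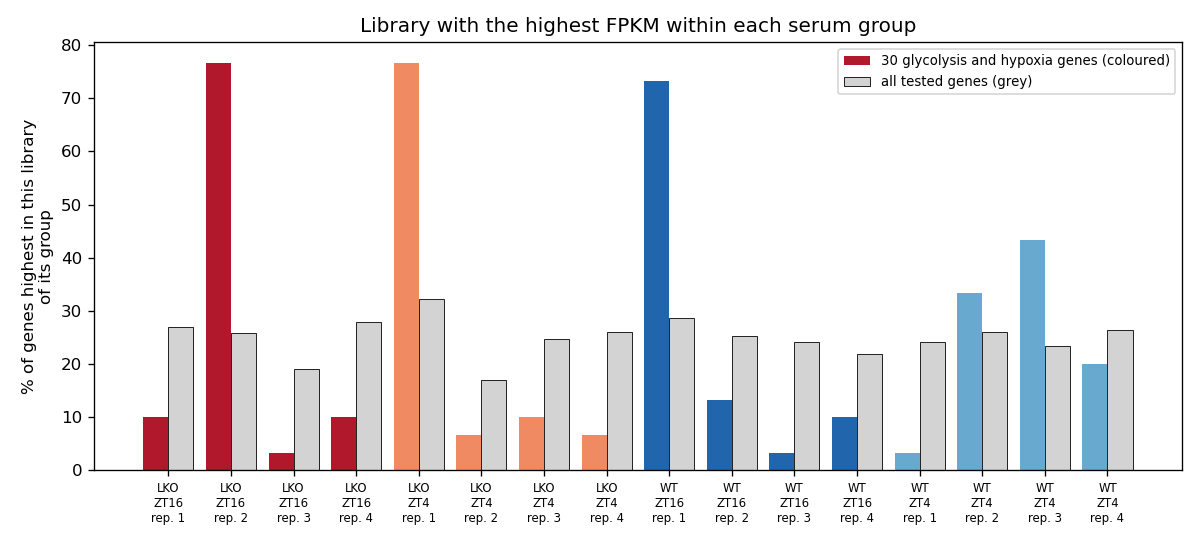
Bars give, for each library, the percentage of genes whose highest FPKM within the serum group lies in that library, coloured for the 30 glycolysis and hypoxia genes and grey for all 11802 tested genes. LKO ZT16 replicate 2, LKO ZT4 replicate 1 and WT ZT16 replicate 1 reach 73.3 to 76.7% for the 30 genes, where the grey bars stay between 25.9 and 32.3%.

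The summed level of muscle genes was lowest in the same libraries. Of 10 myotube markers, 9 were in the table and all 9 were expressed, with summed levels of 4269 to 4783 FPKM in LKO ZT16, 3950.3 to 5792 in LKO ZT4, 4298 to 5653 in WT ZT16 and 4212 to 4930.0 in WT ZT4. The lowest sum of each group was in LKO ZT16 replicate 2, LKO ZT4 replicate 1, WT ZT16 replicate 1 and WT ZT4 replicate 3, which in each group were the libraries highest for more of the 30 genes than any other (in WT ZT4, 13 of 30). Markers of proliferating myoblasts summed to 281 to 344 FPKM over the 16 libraries. Their part in the differences between libraries was not tested, and in bulk RNA fewer cells of a type and less RNA per cell cannot be told apart. The defining markers of other cell types were at or near 0: Ttr of hepatocytes and Hbb-bs and Ptprc of blood were at 0 in every library, hepatocyte markers summed to at most 0.136 FPKM, adipocyte markers summed to at most 1.26 FPKM and fibroblast markers to at most 1.74 FPKM. The third blood marker, the globin gene Hba-a1, was above 0 in every library, at 0.0860 to 1.083 FPKM.

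Summed FPKM ran from 581966 to 691771 over the libraries, and relative depth, estimated from the steps between low values, from 65.5 to 100% of that of WT ZT4 replicate 2. The 3 libraries with most of the highest values had 73.0% (LKO ZT16 replicate 2), 74.2% (LKO ZT4 replicate 1) and 66.0% (WT ZT16 replicate 1). A value comparing short with long transcripts, the mean centred log2(FPKM+1) of those under 500 nt minus that of those over 2000 nt, was -0.01, -0.04 and 0.07 in the same libraries, within a range of -0.11 to 0.21 over all 16. The part of depth and of this value was not tested.

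Relations between genes were measured over the 16 libraries with group means removed, for Slc2a1 and Bnip3 against all other tested genes. Both were taken as the first listed glycolytic and hypoxia gene after values by library had been seen. The p-values came from 100000 permutations within groups and were adjusted over 23602 relations. None of the 29 other genes passed with either gene by Pearson's r, as for all tested genes (0%). For Slc2a1, 20 of the 29 had a positive relation at an unadjusted permutation p under 0.05, where 8.31% of all tested genes had one, and 3 had a negative one (6.41%). For Bnip3 the counts were 18 positive (6.28%) and 0 negative (5.83%).

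Bnip3 and Pdk1 had the closest relation, with r = 0.97 and rho = 0.96 (permutation p = 2e-05 and 5e-05, adjusted 0.0674 and 0.0983), and r = 0.95 without LKO ZT4 replicates 1 and 4, the libraries farthest from the median of Bnip3. Eno1 with Slc2a1 had r = 0.90 and rho = 0.96 (permutation p = 2e-05 and 1e-05, adjusted 0.0674 and 0.0393), and r = 0.83 without the same 2 libraries. The p of rho is the smallest that the permutations can give, and by rho this relation passed adjustment. Among 11801 tested genes, 1 positive and 5 negative relations with Slc2a1 passed by rho, and 0 with Bnip3. Bnip3 had r = 0.93 with Pfkl, 0.92 with Slc16a3 and 0.90 with Pfkfb3 (adjusted permutation p = 0.0871, 0.102 and 0.0808; rho 0.88, 0.89 and 0.85). Without LKO ZT4 replicates 1 and 4 these were 0.90, 0.88 and 0.85. The median r of the 29 genes was 0.76 with Slc2a1 and 0.78 with Bnip3, and 0.63 and 0.67 without those 2 libraries.

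Pfkm, Pgam2, Eno3 and Ldhb had a negative r with both genes. Aldoa did not share this, with r = 0.76 with Slc2a1 and 0.87 with Bnip3. With Slc2a1, Pgam2 had r = -0.78 and rho = -0.78 (permutation p = 0.0253 and 0.00343, adjusted 0.302 and 0.237) and Pfkm had r = -0.71 and rho = -0.69 (permutation p = 0.0231 and 0.00634, adjusted 0.294 and 0.262). Without LKO ZT4 replicates 1 and 4, r was -0.75 for Pgam2 and -0.77 for Pfkm. Eno3 had r = -0.79 and rho = -0.52 (permutation p = 0.0282 and 0.0884, adjusted 0.311 and 0.490), and r = -0.43 without those libraries, so that the relation rests in part on them. Ldhb had r = -0.59 and rho = -0.27 (permutation p = 0.120 and 0.412, adjusted 0.514 and 0.783), and -0.22 without them. With Bnip3 the relations were weaker: r was -0.54 for Pgam2, -0.48 for Pfkm, -0.65 for Eno3 and -0.44 for Ldhb (permutation p = 0.143, 0.214, 0.0540 and 0.232, adjusted 0.547, 0.633, 0.382 and 0.650). Without LKO ZT4 replicates 1 and 4 these were -0.33, -0.44, -0.09 and -0.05. None of the 4 passed with either gene.

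Of the 9 myotube markers, 8 had a negative r with Slc2a1 and 8 with Bnip3, as had 5518 and 5443 of 11801 tested genes. With each gene, 5 of the 9 had a negative relation at an unadjusted permutation p under 0.05 (6.41 and 5.83% of tested genes), and none passed adjustment. Myh8 had r = 0.35 with Slc2a1, and Ckm and Mb had -0.22 and -0.32. Of 6 markers of proliferating myoblasts, 5 had a positive r with each gene, as had 6283 and 6358 of 11801 tested genes. With each gene, 1 of the 6 had a positive relation at an unadjusted permutation p under 0.05 (8.31 and 6.28% of tested genes), and none passed adjustment. With Slc2a1, Mki67 had r = 0.11 and Pax7 had r = -0.36. Des, encoding desmin, had r = -0.85 and rho = -0.76 with Slc2a1 (permutation p = 0.00392 and 0.00571, adjusted 0.182 and 0.257), and r = -0.71 without LKO ZT4 replicates 1 and 4. Acta1, encoding skeletal alpha-actin, had r = -0.83 and rho = -0.75 with Bnip3 (permutation p = 0.0026 and 0.00893, adjusted 0.165 and 0.284), and r = -0.63 without them. Hypoxia targets outside the 30 genes had a median r of 0.60 with each of Slc2a1 and Bnip3 over 28 genes, and of 0.29 and 0.38 without LKO ZT4 replicates 1 and 4. P4ha1, a collagen prolyl hydroxylase gene, had r = 0.96 and rho = 0.92 with Bnip3 (permutation p = 0.00023 and 0.0007, adjusted 0.0798 and 0.172), and r = 0.92 without those 2 libraries.

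Further genes of the same pathways were given by list. Of 32 other hypoxia targets, 28 were tested and none passed in any comparison: 24 of 28 were positive in LKO ZT4 against WT ZT4 with a median of 0.11 (19 of 28 and 0.04 at equal summed FPKM), and 18 of 28 in LKO ZT16 against WT ZT16 with 0.05 (24 of 28 and 0.16 at equal summed FPKM). They were positive for 10 of 28 in LKO ZT16 against LKO ZT4 and for 16 of 28 in WT ZT16 against WT ZT4 (16 and 11 at equal summed FPKM). P4ha2, a collagen prolyl hydroxylase gene, averaged 28.8 ± 9.73 FPKM in LKO ZT4 and 17.6 ± 1.05 FPKM in WT ZT4 (0.63 ± 0.17 log2, adjusted p = 0.264). Insig2, which retains the sterol sensor complex in the endoplasmic reticulum, averaged 22.9 ± 1.43 FPKM in LKO ZT16 and 18.6 ± 2.98 FPKM in WT ZT16 (0.30 ± 0.10 log2, adjusted p = 0.251). Ppfia4 averaged 3.17 ± 0.49 FPKM in WT ZT16 and 4.10 ± 0.42 FPKM in WT ZT4 (-0.29 ± 0.09 log2, adjusted p = 0.999).

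Of 39 other genes of glucose metabolism, 27 were tested and none passed: 21 of 27 were positive in LKO ZT16 against WT ZT16, with a median of 0.08, and 27 of 27 at equal summed FPKM, with 0.18 where all tested genes had 0.10. In LKO ZT4 against WT ZT4 18 of 27 were positive, with a median of 0.06, and 12 of 27 at equal summed FPKM, with -0.02 where all tested genes had -0.07. Those positive were 13 of 27 in LKO ZT16 against LKO ZT4 and 10 of 27 in WT ZT16 against WT ZT4 (22 and 4 at equal summed FPKM). Slc16a1, encoding the lactate and pyruvate carrier MCT1, averaged 53.9 ± 2.19 FPKM in LKO ZT16 and 44.7 ± 4.31 FPKM in WT ZT16 (0.27 ± 0.09 log2, adjusted p = 0.263). Pdk4, the pyruvate dehydrogenase kinase gene known for its response to fasting, averaged 50.2 ± 7.19 FPKM in LKO ZT16 and 34.7 ± 11.8 FPKM in WT ZT16 (0.59 ± 0.21 log2, adjusted p = 0.276). Pdk2, of the same family, averaged 6.33 ± 0.74 FPKM in LKO ZT4 and 4.87 ± 0.60 FPKM in WT ZT4 (0.32 ± 0.12 log2, adjusted p = 0.357). None of the 7 tested HIF pathway genes passed; Egln2 averaged 23.0 ± 1.73 FPKM in LKO ZT16 and 26.6 ± 2.24 FPKM in WT ZT16 (-0.20 ± 0.09 log2, adjusted p = 0.375).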

How the data were processed

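The authors deposited 1 table of FPKM per gene and library, from poly-A RNA; STAR and FastQC 0.11.8 are named in the submitters' processing notes, with the builds mm10 and GRCm39 and no role for either. The annotation and the program behind FPKM are unstated, and counts per gene are unknown. Library names joined columns to samples, and replicate numbers here are those of the sample titles, which differ from the column names for some libraries.

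Genes with a mean of at least 0.5 FPKM were tested as log2(FPKM+1), which understates changes of low genes, with no further scaling. Of the rows tested or not, 27 had symbols turned into dates and went unnamed, and 7122 were 0 throughout. limma 3.58.1 in R 4.3.3 fitted all 4 groups together (eBayes with trend, 12 residual degrees of freedom), with contrasts for 4 pairwise comparisons and the interaction; Benjamini-Hochberg adjustment ran over 11802 genes, and a gene passed at an adjusted p under 0.05. The fit was tested on simulated data. Relations, relative depth and figures were computed in Python 3.11.15 with numpy 2.4.6 and matplotlib 3.10.9. Relative depth used genes whose FPKM times transcript length was below 150.

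In each comparison the 6 genes with the smallest p were named; genes so named in at least 2 comparisons have every library's value, and further lists gave up to 3 genes each. The genes and lists were chosen with earlier results of these data known. Promoter windows came from RefSeq on GRCm38.p6, the first listed per gene; transcript lengths were medians over GENCODE M21 transcripts, found for 96.3% of tested genes.

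Other settings tried were a pseudocount of 0.1, all genes above 0, a minimum mean of 2 FPKM, library weights, equal summed FPKM, scaling by median ratios, fitting the compared groups alone, a replicate block by titles, removal of a smooth dependence on transcript length (5-df natural spline) and each library left out. A replicate block by column names, the trend with lengths of the basic transcript set and all alternatives for relations were added after seeing the data.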

Additional observations from a re-analysis of the deposited data

Results flagged for a closer look

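Each of the 30 genes was searched in each group of 4 libraries for a library far from the other 3. A library was flagged when its gap to the nearest library exceeded 0.829 of the range of the 4. Of 120 searches, 8 found one, which is close to the rate of about 1 in 20 that chance gives for independent normal values. The genes moved together within groups, so the searches are not independent, and the share among all tested genes is not given. In LKO ZT4 replicate 1, Gpi1 had 190.2 FPKM where the other 3 libraries had 144 to 149, and Ldha had 953 FPKM where they had 663 to 692. In WT ZT4 replicate 3, Eno3 had 521 FPKM where the others had 558 to 565, and Pfkp had 14.5 FPKM where they had 18.0 to 18.7. In WT ZT4 replicate 2, Slc16a3 had 5.95 FPKM where the others had 9.12 to 9.60.

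In WT ZT16 replicate 2, Pgam2 had 43.9 FPKM where the others had 34.2 to 35.9. In WT ZT16 replicate 3, Eno3 had 541 FPKM where the others had 566 to 569. In WT ZT16 replicate 4, Mxi1 had 7.26 FPKM where the others had 5.85 to 6.06.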

How the results depend on the processing

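No gene of the 30 passed in any comparison under any alternative that was run. The counts with an unadjusted limma p under 0.05 did change. At equal summed FPKM they were 2 in LKO ZT16 against LKO ZT4, 1 in WT ZT16 against WT ZT4 and 1 in the interaction. The counts of all tested genes that passed were less stable. With library weights they were 255 (LKO ZT16 against WT ZT16), 3 (LKO ZT4 against WT ZT4), 13 (LKO ZT16 against LKO ZT4), 7 (WT ZT16 against WT ZT4) and 127 (interaction), against 6, 1, 2, 0 and 11. With no filter they were 0, 0, 0 and 3 for LKO ZT16 against WT ZT16, LKO ZT4 against WT ZT4, LKO ZT16 against LKO ZT4 and the interaction. With a mean of at least 2 FPKM they were 2, 1 and 23 for LKO ZT4 against WT ZT4, WT ZT16 against WT ZT4 and the interaction. Fitting only the groups compared gave 132, 0 and 18 for LKO ZT16 against WT ZT16, LKO ZT16 against LKO ZT4 and WT ZT16 against WT ZT4. At equal summed FPKM the counts were 0 for LKO ZT4 against WT ZT4, 0 for LKO ZT16 against LKO ZT4, 1 for WT ZT16 against WT ZT4 and 17 for the interaction, whose median over the 30 genes was 0.0296; that scaling also turned the direction of Eno3 in LKO ZT16 against WT ZT16 (0.0096), of Egln1 and Eno3 in LKO ZT16 against LKO ZT4 (0.0238 and 0.0236), and of Egln1 (0.0541), Egln3 (0.0206) and Gapdh (0.0015) in the interaction. Library weights turned Pfkm in LKO ZT16 against LKO ZT4 (-0.025). Median-ratio scaling gave 2 for LKO ZT16 against WT ZT16. Removing the length trend gave 5 for LKO ZT16 against LKO ZT4 and 1 for WT ZT16 against WT ZT4, and with the basic transcript set 12, 4 and 1 for LKO ZT16 against WT ZT16, LKO ZT4 against WT ZT4 and WT ZT16 against WT ZT4. The cause was not tested.

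Titles and columns number the replicates differently. With group means removed, same-numbered libraries correlated over 0.1 in 4 of 24 pairs by titles and 8 of 24 by column names. Their mean r was 0.0024 by titles and 0.065 by column names, against -0.00077 and -0.022 for other pairs. Whether either numbering pairs the samples cannot be settled from these values. With a replicate block by titles 0 genes passed in LKO ZT16 against WT ZT16, 0 in LKO ZT16 against LKO ZT4 and 6 in the interaction; by column names 3 passed in LKO ZT16 against WT ZT16 and 3 in LKO ZT4 against WT ZT4.

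With each library left out in turn, 0 to 1 genes passed in LKO ZT16 against WT ZT16, 0 to 16 in LKO ZT4 against WT ZT4, 0 to 59 in LKO ZT16 against LKO ZT4 and 6 to 109 in the interaction. The highest of the last 3 counts (16, 59 and 109) came without LKO ZT4 replicate 1, and the interaction had 39 without LKO ZT4 replicate 3. Genes of the 29 positively related to Slc2a1 were 0 to 2 with a library left out, 1 with a pseudocount of 0.1 and 1 with median-ratio scaling; those related to Bnip3 were 1 with median-ratio scaling and 1 with the length trend removed. FPKM without counts leaves the depth of each gene unknown, which limits what can be said of Ankrd37, Pdk1 and the other low genes.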
